A study of Mus musculus with 12 samples.

Results

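The TGF-β response of wild-type (WT) mesenchymal stem/stromal cells (MSCs) is the difference in RNA levels between MSCs kept with TGF-β and MSCs kept without it. It was measured on 7 of the 12 arrays of the series: 3 arrays of TGF-β-treated WT MSCs, numbered 1, 3 and 4 in their titles, and 4 arrays of untreated WT MSCs, numbered 1, 3, 4 and 4b. The MSCs came from the bone marrow of mice with floxed Mapk14 alleles, the gene of p38α, and a Cre transgene, and were immortalized in culture. The labels give the strain background as FVB/NJ, whereas the study's methods name another background for its mice. The Cre works only after 4-hydroxytamoxifen (4-OHT), so the WT MSCs carry the floxed alleles and the transgene but received vehicle, whereas the p38α∆ MSCs of the other 5 arrays received 4-OHT. All cells were starved in 0.5% fetal bovine serum, and the treated ones received TGF-β at 5 ng/ml over 20 h. Whether each array holds RNA of its own culture is not in the labels, and the p-values measure only the spread among arrays, which may be technical. Nor do the sources used here say from how many animals the immortalized cells came.

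TGF-β is a secreted growth factor that is held latent in the matrix until it is released. It binds a receptor pair with kinase activity, TGFBR2 and TGFBR1, which phosphorylates Smad2 and Smad3; these join Smad4, enter the nucleus and act on genes together with AP-1 and other factors. In MSCs and fibroblasts it is best known for raising matrix genes, for holding back adipocyte and terminal osteoblast differentiation, and for switching on its own inhibitors, and it also feeds into MAP kinase cascades.

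Values are on the log2 scale after robust multi-array averaging (RMA), so that a difference of 1 is a doubling of the signal. A gene was represented by 1 probeset, and 17097 genes were tested with limma, in a fit that treated arrays with the same number as related. The arrays numbered 1 stood apart. The difference between a pair of untreated arrays had an SD over genes of 0.45 to 0.47 when it involved array 1 and of 0.17 to 0.18 among arrays 3, 4 and 4b, so array 4b differed from array 4 as much as array 3 did and was kept as an array of its own. The 21 measured markers of MSCs, pericytes and fibroblasts had a median value of 5.75 in untreated WT MSCs. Among them Pdgfrb, the PDGF receptor of perivascular cells, had a mean of 9.14, Itgb1 (CD29), an integrin chain, one of 9.15 and Pdgfra, the other PDGF receptor, one of 6.14. Of defining markers of other cell types, untreated means were 3.58 for Pecam1 (CD31) and 3.91 for Cdh5 (VE-cadherin) of endothelial cells, 2.72 for Ptprc (CD45) of leukocytes and 3.97 for Epcam of epithelial cells, and none of these 4 passed the test of the response. Values of different probesets depend on their probes too, so they do not rank genes.

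TGF-β changed 1681 genes at an adjusted p under 0.05, 9.83% of those tested, with 771 higher (4.51%) and 910 lower (5.32%). The rises were larger than the falls at the extreme. At least a doubling was reached by 118 genes that rose and a halving by 60 that fell, and a change of at least 2 on the log2 scale by 13 that rose and 1 that fell. The median change was 0.59 among genes that rose, −0.50 among genes that fell and −0.0065 over all genes. All but 1 of the 771 genes rose within each of the numbers 1, 3 and 4, and each of the 910 fell within each of them. The same arrays made the calls, so this agreement follows largely from the selection and is not a replication. The treated and untreated arrays did not overlap for 644 of the genes that rose and 774 of those that fell, where 13% of all genes tested had groups that did not overlap. The count rests on the pairing of arrays by number: without the replicate block 295 genes were higher and 298 lower. Without the 4 arrays numbered 1 it was 625 higher and 649 lower.

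**Figure D1:**
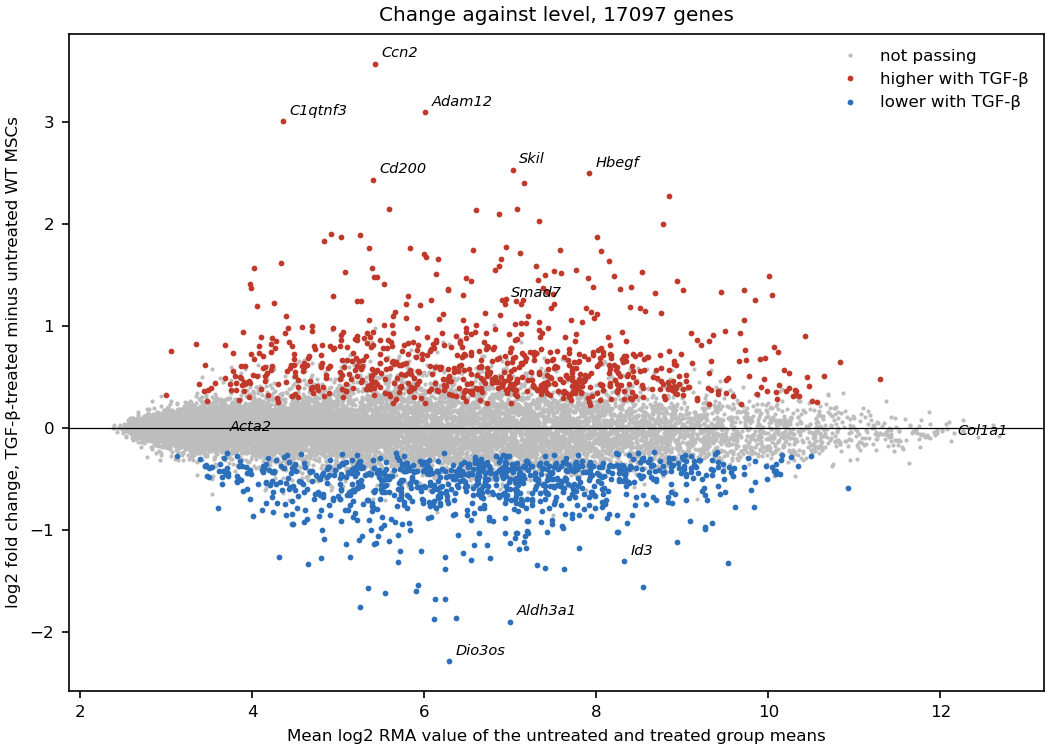
Change against level for the 17097 genes, with the mean log2 RMA value of the untreated and treated WT group means on the horizontal axis and the log2 fold change (TGF-β-treated minus untreated WT MSCs, limma) on the vertical axis; each point is 1 gene, red where it passed as higher, blue as lower and grey where it did not pass. Rises reach 3.57 (Ccn2) while falls end at −2.28 (Dio3os), and genes with high values such as Col1a1 lie near 0.

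Among the 12 genes with the largest rises, the first was Ccn2 (CTGF), a matrix protein known as a TGF-β target, which was at 3.60, 3.35, 3.68 and 3.96 in untreated arrays 1, 3, 4 and 4b and at 6.97, 7.61 and 7.04 in treated arrays 1, 3 and 4, a rise of 3.57 (SE 0.16, adjusted p = 3.23e-07 in limma). Adam12, a metalloprotease of the cell surface, stood at 4.48, 4.51, 4.33 and 4.63 untreated and at 7.16, 7.70 and 7.76 treated, in the same order. Every treated array thus lay far above every untreated one, with a rise of 3.10 (SE 0.21, adjusted p = 3.86e-06), and a second probeset of Adam12 gave 2.64. Skil (SnoN), a co-repressor that dampens Smad transcription, was at 4.58, 6.25, 6.19 and 6.13 untreated and at 7.91, 8.72 and 8.20 treated. Untreated array 1 was the low one, and the rise was 2.54 (SE 0.25, adjusted p = 6.58e-05). C1qtnf3 (CTRP3), a secreted protein of the C1q and TNF family, was flat at 2.77 to 3.00 in the untreated arrays and spread over 4.43, 7.34 and 5.74 in the treated ones. Its rise of 3.01 was therefore less precise than the others (SE 0.53, adjusted p = 0.0035).

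Several of the other large rises were in signalling proteins. Nfatc1, a calcium-regulated transcription factor, went from 8.11, 7.81, 7.55 and 7.25 untreated to 10.24, 9.87 and 9.90 treated, a rise of 2.28 (SE 0.13, adjusted p = 1.18e-06) in which all 5 of its probesets moved by 1.03 to 2.28. Rgs4, which switches off G protein signals, rose by 2.15 (SE 0.10), and Lgr6, a receptor for R-spondins, by 2.10 (SE 0.15). Tnfaip6 (TSG-6), which crosslinks hyaluronan and is anti-inflammatory, stood at 5.44, 6.36, 6.32 and 5.67 untreated and at 8.28, 8.51 and 8.29 treated. The treated arrays agreed closely while the untreated ones fell into a lower and a higher pair, and the rise was 2.41 (SE 0.18, adjusted p = 8.11e-06). Cd200, a surface glycoprotein that restrains myeloid cells, lay between 4.03 and 4.40 in the untreated arrays and rose by 2.44 (SE 0.20). Egr2, a zinc finger factor of the early growth response family, rose by 2.14 (SE 0.21). Fgf2 (basic FGF), a mitogen of mesenchymal cells, also rose by 2.14 (SE 0.21), and Nudt6, which lies opposite Fgf2 on the other strand and is named here because of that overlap after its value was seen, rose by 2.03 (SE 0.14). The sources used here do not say whether labelling kept the strand, so the RNAs of this overlapping pair cannot be told apart with certainty.

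The largest fall was that of Dio3os, a non-coding RNA from the strand opposite Dio3, the gene of a thyroid hormone-inactivating enzyme. It was at 7.87, 7.36, 7.37 and 7.14 untreated and at 5.09, 5.00 and 5.36 treated, a change of −2.28 (SE 0.15, adjusted p = 3.08e-06), which made it the single gene below −2. Aldh3a1, an aldehyde dehydrogenase, was at 8.36, 7.97, 7.96 and 7.42 untreated and at 6.23, 6.32 and 5.68 treated, with no overlap and a change of −1.90 (SE 0.17, adjusted p = 3.19e-05). Txnip, which binds thioredoxin and holds back glucose uptake, was steady at 9.22 to 9.51 in the untreated arrays and was at 7.53, 8.01 and 7.77 in the treated ones, a change of −1.56 (SE 0.12, adjusted p = 9.23e-06). Map2k6, the kinase MKK6 that activates p38, fell by 1.62 on the log2 scale (SE 0.17, adjusted p = 0.000115), from 5.83, 6.27, 6.48 and 6.91 to 4.56, 4.80 and 4.77. Mapk14 itself did not pass with the probeset used (0.44, SE 0.16, adjusted p = 0.128). Its other 5 probesets gave 0.09 to 0.54, and the one at 0.54 passed in limma over all probesets (adjusted p = 0.0371).

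Transcriptional regulators and signalling proteins were also among the 12 largest falls. Eya1, a phosphatase and co-activator of homeodomain factors, fell by 1.53 on the log2 scale (SE 0.16), Rassf2, a Ras-binding adaptor of the Hippo kinases, by 1.76 (SE 0.10), and Hopx, a small homeodomain protein, by 1.57 (SE 0.18). Ptgfr, the receptor of prostaglandin F2α, fell by 1.68 (SE 0.19), and Tmem53, a nuclear envelope protein that restrains BMP signalling in osteoblasts, by 1.86 (SE 0.13). Trp53inp1, a p53 target, and Klhl24, an adaptor of a ubiquitin ligase, changed by −1.67 (SE 0.31) and −1.59 (SE 0.28), and for both of them untreated array 1 lay among the treated arrays while each of the numbers 1, 3 and 4 showed the fall. For Trp63, a p53 family factor of epithelia, probesets disagreed: the one used gave −1.87 (SE 0.19), and its others −0.86, −0.33 and 0.04. Hopx likewise had another probeset at −0.12.

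**Figure D2:**
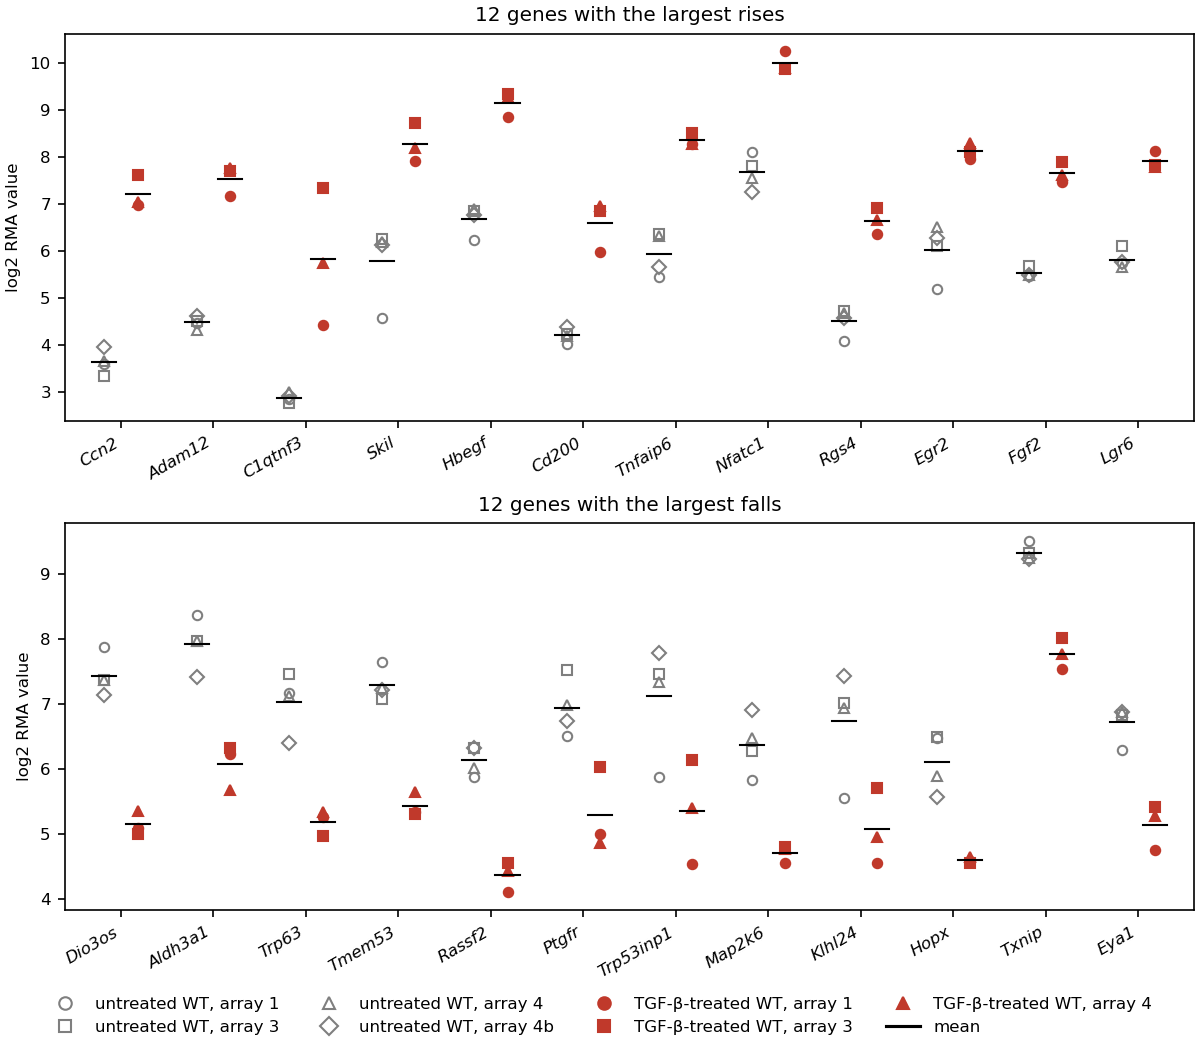
Log2 RMA values (vertical axis) of the 12 genes with the largest rises (upper panel) and the 12 with the largest falls (lower panel); grey open symbols are untreated and red filled symbols TGF-β-treated WT arrays, the shape gives the array number, and black bars are group means. Groups are apart for all 24 genes except Trp53inp1 and Klhl24, where untreated array 1 (5.88 and 5.55) lies within the treated range, and C1qtnf3 has the widest treated spread.

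Short sequence motifs were looked for in the promoters, since a known Smad site, the CAGA box, is a short one. RefSeq promoter windows (GRCm38.p6) matched 13605 of the genes tested, and the 11088 genes with exactly 1 window were used, over the 250 bases before the start and on both strands. The CAGA box (CAGACA) was in 12.7% of the 471 windows of genes that rose, in 10.9% of the 552 of genes that fell and in 14.5% of all. The AP-1 site (TGANTCA) was in 4.25%, 5.07% and 5.52% respectively, and the TEAD site (GGAATG) in 9.13%, 9.6% and 11.4%. The E-box (CACGTG) was in 9.55% of windows of genes that rose, 10.3% of genes that fell and 7.58% of all, and the FOXO site (GTAAACA) in 3.18%, 1.99% and 2.54%. The windows of genes that rose had a median G+C content of 63.6%, those of genes that fell 60% and all windows 57.6%. A match is only a run of letters, and the shares were not tested. Of the 12 genes with the largest rises, the windows of C1qtnf3, Cd200, Tnfaip6, Rgs4, Fgf2 and Lgr6 were read individually. Those of the others, such as Ccn2 and Skil, were not. Among the windows read, only that of Tnfaip6 holds both the CAGA box and the AP-1 site. Its CAGA box starts 123 bases and its AP-1 site 142 bases before the start. Txnip, from the largest falls, holds a FOXO site 121 bases before its start. The windows are chr2:52037863-52038112 (plus strand) for Tnfaip6 and chr3:96557707-96557956 (plus strand) for Txnip, printed 5′ to 3′ with capitals for every match of the motifs searched, which in Tnfaip6 include a TEAD site on the minus strand at 8 bases.
Tnfaip6: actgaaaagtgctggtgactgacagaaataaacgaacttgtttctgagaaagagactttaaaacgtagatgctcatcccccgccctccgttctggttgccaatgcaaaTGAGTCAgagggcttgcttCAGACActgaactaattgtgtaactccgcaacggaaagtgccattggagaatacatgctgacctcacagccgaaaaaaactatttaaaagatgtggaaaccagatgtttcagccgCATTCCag
Txnip: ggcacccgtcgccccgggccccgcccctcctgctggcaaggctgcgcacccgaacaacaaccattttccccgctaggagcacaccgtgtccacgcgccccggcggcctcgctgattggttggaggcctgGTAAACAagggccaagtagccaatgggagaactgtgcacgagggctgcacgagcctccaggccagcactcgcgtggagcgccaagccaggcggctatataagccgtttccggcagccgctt

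Of 27 measured genes known to answer TGF-β in many cell types, among them its feedback inhibitors, 14 rose, 1 fell and 12 did not pass (55.6% called, against 9.83% of all genes), with a median of 0.39. The count of rises was 14 without the arrays numbered 1 and 12 without the replicate block. Smad7, the inhibitory Smad that brings ubiquitin ligases to the receptor, was at 6.15, 6.25, 6.54 and 6.39 untreated and at 7.49, 7.56 and 7.56 treated. The treated arrays were tightly grouped above all untreated ones, a rise of 1.22 (SE 0.09, adjusted p = 1.02e-05). Spsb1, an adaptor that targets TGFBR2 for destruction, rose by 2.00 (SE 0.13), and its other 3 probesets gave 1.44 to 1.94. Tgfbi, a matrix protein named for its induction by TGF-β, was at 7.59 to 7.62 in the 4 untreated arrays and at 8.79, 8.94 and 9.12 in the treated ones, a rise of 1.36 (SE 0.10). Bhlhe40 (DEC1), a repressor that also acts in the clock, rose by 1.74 (SE 0.08, adjusted p = 3.23e-07). The member that fell was Cdkn2b (p15), a CDK inhibitor that TGF-β raises in epithelial cells, named here after its value was seen: it was at 9.11 to 9.31 untreated and at 8.55, 9.01 and 8.73 treated, a change of −0.44 (SE 0.10, adjusted p = 0.0163).

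Among ligands, receptors and Smads of the pathway, 5 of 24 rose and 3 fell (20.8% higher and 12.5% lower, against 4.51% and 5.32% of all genes). The rises were in secreted proteins that form ligand or trap it and in 1 receptor. Tgfb3, a TGF-β isoform, was at 7.96 to 8.07 untreated and at 9.19, 9.19 and 9.04 treated, a rise of 1.14 (SE 0.06, adjusted p = 9.91e-07). Fst (follistatin) and Fstl3, which bind and block activins, rose by 1.41 (SE 0.20) and 1.37 (SE 0.17), and Tgfb1 by 0.69 (SE 0.17, adjusted p = 0.0217), with array 1 high in both groups. The falls were in the receiving parts of the pathway. Smad3, the Smad that carries the signal, was at 7.94, 7.52, 7.41 and 7.48 untreated and at 6.63, 6.21 and 6.84 treated, a change of −1.02 (SE 0.13, adjusted p = 0.000351), and its other probesets gave −1.05 and −0.81. Tgfbr2, the type II receptor, changed by −0.49 (SE 0.11, adjusted p = 0.0164), and Tgfbr1, the type I receptor, did not pass (0.44, SE 0.33).

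The BMP branch signals through Smad1, Smad5 and Smad9 and turns on Id genes. In it 2 of 25 members rose and 4 fell (8.0% higher and 16.0% lower, against 4.51% and 5.32% of all genes). Id3, a helix-loop-helix inhibitor of differentiation factors, lay between 8.86 and 9.06 untreated and at 7.67, 7.69 and 7.66 treated. The 3 treated arrays nearly coincided, well below the untreated ones, for a change of −1.31 (SE 0.07, adjusted p = 9e-07). Id2 changed by −1.26 (SE 0.16), with other probesets at −0.74 and −0.29, whereas Id1 did not pass (0.09, SE 0.12). Bmp4, a BMP ligand, changed by −1.17 (SE 0.13), and Grem1 (gremlin), which blocks BMP ligands, rose by 0.72 (SE 0.18, adjusted p = 0.0228) with overlapping arrays. Without the arrays numbered 1 there were no rises and 3 falls in this list.

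Matrix genes changed in part. Of 40 collagen chains 6 rose and none fell (15% higher, against 4.51% of all genes, median 0.04). Without the replicate block 4 rose. Col27a1, a fibrillar collagen of cartilage, was at 6.84, 7.47, 7.55 and 7.34 untreated and at 8.03, 8.90 and 8.92 treated, a rise of 1.38 (SE 0.20, adjusted p = 0.000927). Col7a1, of anchoring fibrils, rose by 1.30 (SE 0.15), Col5a3, a minor chain of collagen V, by 1.13 (SE 0.14; another probeset near the bottom of the scale gave 0.10) and Col8a2, a short-chain network collagen, by 0.92 (SE 0.09). Col1a1, the main collagen of bone and fibrous tissue, was at 12.48, 12.07, 12.08 and 12.08 untreated and at 12.20, 11.97 and 12.02 treated. The groups overlapped, and Col1a1 did not pass (−0.13, SE 0.08, adjusted p = 0.438). Fn1 (fibronectin), a glycoprotein of the provisional matrix, was at 11.93 to 12.06 untreated and at 11.98 to 12.03 treated and did not pass either (−0.02, SE 0.07).

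Enzymes that finish collagen and build glycosaminoglycans were among the rises. Of 31 collagen processing genes 4 rose and none fell (12.9% higher, against 4.51% of all genes). They were Plod2, the lysyl hydroxylase of collagen telopeptides (1.33, SE 0.11, adjusted p = 2.18e-05), Loxl2 and Lox, which oxidize lysines for crosslinks (0.85, SE 0.14, and 0.54, SE 0.09), and Sec23a, a coat protein that exports procollagen (0.67, SE 0.13). Of 34 hyaluronan and glycosaminoglycan genes 9 rose and none fell, 26.5% against 4.51% of all genes, with a median of 0.14. The count was 10 without the arrays numbered 1, where 1 fell, and 8 without the replicate block. Has2, the main hyaluronan synthase of mesenchymal cells, was at 4.04, 4.34, 4.17 and 3.82 untreated and at 5.70, 6.43 and 5.76 treated, a rise of 1.87 (SE 0.24, adjusted p = 0.000403). Ugdh, which makes the UDP-glucuronate that hyaluronan and chondroitin need, rose by 0.82 (SE 0.09). Chsy1, a chondroitin polymerase, rose by 0.90 (SE 0.10), and Chst11, a chondroitin sulfotransferase, from 7.10, 6.97, 6.67 and 6.51 to 8.52, 8.32 and 8.27, by 1.52 (SE 0.10, adjusted p = 2.65e-06).

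Matrix glycoproteins and proteases moved both ways. Of 59 glycoproteins and proteoglycans 7 rose and 6 fell (11.9% higher and 10.2% lower, against 4.51% and 5.32% of all genes). Without the replicate block 5 rose and 1 fell. Ccn4 (WISP1), a matricellular protein of bone, rose by 1.87 (SE 0.17, adjusted p = 4.71e-05) from 6.28, 7.43, 7.31 and 7.35 to 8.74, 9.10 and 8.94. Ccn5, its family member without the C-terminal domain, fell by 1.12 on the log2 scale (SE 0.15, adjusted p = 0.000455) from 7.91, 7.81, 7.88 and 7.21 to 6.53, 6.71 and 6.59. Tnc (tenascin C), an anti-adhesive glycoprotein of healing tissue, rose by 0.87 (SE 0.13). Among 49 proteases and inhibitors 9 rose and 7 fell (18.4% higher and 14.3% lower), and without the replicate block 7 and 1. Timp3, a matrix-bound inhibitor of metalloproteases, rose by 1.33 (SE 0.12) and its other 3 probesets by 0.92 to 1.13. Its target Adamts4, an aggrecanase, rose by 1.18 (SE 0.10), while Adamts5, the other main aggrecanase, was at 6.54, 7.46, 6.88 and 7.42 untreated and at 5.54, 6.24 and 5.71 treated, a change of −1.23 (SE 0.18, adjusted p = 0.000975).

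Most contractile genes, integrins and Snail factors did not pass. Of 49 contractile and cytoskeletal genes 4 rose and 3 fell (14.3% called, against 9.83% of all genes), and without the replicate block 2 rose and none fell. Acta2 (smooth muscle actin), a myofibroblast marker, did not pass with the probeset used (−0.09, SE 0.14) or with its other probeset, whose mean level was 11.99 (−0.03). Srf, which drives actin genes through CArG boxes, was at 7.42, 7.84, 7.93 and 7.73 untreated and at 8.19, 8.42 and 8.44 treated, a rise of 0.64 (SE 0.09, adjusted p = 0.000771). Another probeset of Srf, with an untreated mean of 4.80, gave 0.11. The cofactor gene Mrtfb fell by 0.51 on the log2 scale (SE 0.11, adjusted p = 0.0118). The Srf promoter window (chr17:46556163-46556412, minus strand) itself holds 2 CArG boxes, at 82 and 62 bases before the start, a motif found in 1.3% of all windows and in 1.06% of those of genes that rose.
Srf: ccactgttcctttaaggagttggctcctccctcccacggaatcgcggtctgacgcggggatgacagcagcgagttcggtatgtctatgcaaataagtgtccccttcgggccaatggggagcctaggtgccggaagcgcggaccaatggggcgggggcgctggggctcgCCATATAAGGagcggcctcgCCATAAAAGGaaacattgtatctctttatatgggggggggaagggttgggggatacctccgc

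Of 23 integrins 1 rose and 2 fell (4.35% higher and 8.70% lower, against 4.51% and 5.32% of all genes), and without the replicate block none rose and 1 fell. The largest change was in Itga3, a laminin receptor chain, with −1.26 (SE 0.15, adjusted p = 0.000233). Among 22 Snail, Twist and Zeb factors with cadherins 1 rose and 2 fell (13.6% called, against 9.83% of all genes), and without the replicate block none rose and 1 fell. Prrx2, a homeodomain factor of mesenchyme, changed by −0.42 (SE 0.08, adjusted p = 0.0049) and passed in each alternative setting with 1 probeset per gene. Snai1 rose by 0.71 (SE 0.20, adjusted p = 0.0465) while its paralog Snai2 changed by −0.75 (SE 0.21, adjusted p = 0.0441), and these did not pass in 10 (Snai1) and 11 (Snai2) of the 18 alternative settings.

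Some early response factors and some genes of the MAP kinase feedback list were higher after 20 h. Of 28 AP-1, EGR, NR4A and KLF genes 5 rose and 2 fell (17.9% higher and 7.14% lower, against 4.51% and 5.32% of all genes). Of 21 MAP kinase feedback genes 6 rose and none fell (28.6% against 4.51%, and 4 without the replicate block). Jun, an AP-1 subunit, was at 6.57 to 6.74 untreated and at 7.33, 7.28 and 7.57 treated, a rise of 0.78 (SE 0.10, adjusted p = 0.000315). Its partners Fosl1 and Maff rose by 0.97 (SE 0.12) and 0.80 (SE 0.08). Gadd45b, which belongs to that list but is known to bind and activate MTK1, a kinase upstream of p38 and JNK, was at 7.98, 7.80, 7.69 and 7.58 untreated and at 9.07, 9.49 and 9.33 treated, a rise of 1.53 (SE 0.14, adjusted p = 3.36e-05). Its relative Gadd45g rose by 1.64 (SE 0.20). Errfi1 (MIG6), which blocks EGF receptors, rose by 1.06 (SE 0.10), and Dusp6, the ERK phosphatase, by 0.94 (SE 0.23, adjusted p = 0.0207), with untreated array 1 far below the rest at 4.94.

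Of 46 secreted growth factors measured, 13 rose, 5 fell and 28 did not pass, so that 39.1% were called, against 9.83% of all genes. Without the arrays numbered 1 it was 9 and 5, and without the replicate block 7 and 2. Ligands of the EGF receptor were among the rises. Hbegf was at 6.24, 6.85, 6.89 and 6.76 untreated and at 8.86, 9.33 and 9.27 treated, a rise of 2.50 (SE 0.13, adjusted p = 4.95e-07), and Ereg (epiregulin) rose by 1.38 (SE 0.21). Lif, a cytokine of the IL-6 family, lay between 3.79 and 4.01 in the untreated arrays and was at 5.63, 5.92 and 5.70 in the treated ones, a rise of 1.84 (SE 0.14, adjusted p = 9.13e-06). Kitl (stem cell factor), which feeds blood stem cells in marrow and is named here after its value was seen, was at 6.61, 7.62, 7.22 and 7.31 untreated and at 5.48, 6.53 and 5.66 treated, a change of −1.29 (SE 0.18, adjusted p = 0.000786). Of 41 growth factor and cytokine receptors 3 rose and 6 fell (7.32% higher and 14.6% lower, against 4.51% and 5.32% of all genes), and without the replicate block none rose and 3 fell. S1pr1, the receptor of sphingosine 1-phosphate, changed by −1.18 (SE 0.11), Fgfr2, an FGF receptor, by −0.99 (SE 0.10) and Ghr, the growth hormone receptor, by −0.85 (SE 0.21), while Nrp1 (neuropilin 1), a co-receptor of VEGF and semaphorins, rose by 0.86 (SE 0.18). Other probesets of Nrp1 gave 0.35 and 0.39.

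Wnt, Notch and guidance genes were mixed. Of 51 Wnt genes 4 rose and 6 fell (7.84% higher and 11.8% lower, against 4.51% and 5.32% of all genes). The receptors Fzd7 (0.84, SE 0.16) and Fzd6 (0.73, SE 0.11) were higher and Fzd5 lower (−0.71, SE 0.13). Another probeset of each gave 0.35 for Fzd7, 0.50 for Fzd6 and −0.06 for Fzd5. Of 20 Notch genes 3 rose and 2 fell (15% higher and 10% lower). The largest change among them was in Hey1, a target of both Notch and BMP signals (−1.06, SE 0.17). Without the arrays numbered 1, and likewise without the replicate block, 1 Notch gene was higher. Of 57 guidance genes 4 rose and 6 fell (7.02% higher and 10.5% lower). Sema4f, a transmembrane semaphorin, rose by 1.48 (SE 0.10), Sema7a, a membrane-anchored one that binds integrins, by 1.07 (SE 0.12), and Sema3a, a secreted repellent, changed by −1.08 (SE 0.13). Of 15 IGF-binding and insulin-signalling genes 1 rose (Socs3, a feedback inhibitor of cytokine receptors, 0.78, SE 0.18) and 2 fell (6.67% higher and 13.3% lower).

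Several inhibitors of the cell cycle fell. Of 27 CDK inhibitors, D cyclins and p53 targets 8 fell and 1 rose, 29.6% lower against 5.32% of all genes, with a median of −0.15. Without the arrays numbered 1 the count of falls was 7, and without the replicate block 4. Cdkn1b (p27), an inhibitor of CDK2, was at 8.52, 8.82, 8.97 and 8.97 untreated and at 7.86, 8.23 and 8.25 treated, a change of −0.68 (SE 0.09, adjusted p = 0.000347). Rbl2 (p130), which represses E2F genes in resting cells, was at 5.66 to 6.03 untreated and at 4.88 to 4.93 treated, a change of −0.90 (SE 0.15, adjusted p = 0.0027). Another probeset gave −0.48 for Cdkn1b and −0.39 for Rbl2. Neither passed in limma over all probesets (adjusted p = 0.127 and 0.259). Btg2, an anti-proliferative p53 target, changed by −0.73 (SE 0.13). Cdkn1a (p21) and Cdkn1c (p57), named here after their values were seen, changed by −0.58 (SE 0.12) and −0.64 (SE 0.13).

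Of 54 G1/S and replication genes 8 rose and none fell (14.8% higher, against 4.51% of all genes, median 0.12). Without the replicate block, however, 1 rose, and the median within the numbers 1, 3 and 4 was 0.01, 0.22 and 0.02. E2f8, a repressor made in S phase, was at 3.97 to 4.16 untreated and at 4.90, 5.05 and 5.28 treated, a rise of 0.99 (SE 0.14, adjusted p = 0.000663). Rrm2, the small subunit of ribonucleotide reductase, rose by 0.93 (SE 0.17), Cdc6, which loads the replicative helicase, by 0.82 (SE 0.17) and Mcm6, a subunit of that helicase, by 0.55 (SE 0.12, adjusted p = 0.0099). Of 69 mitosis genes 1 rose (1.45% called, below the 9.83% of all genes), and none did without the arrays numbered 1 or without the replicate block. It was Aurka, a spindle kinase, with 0.38 (SE 0.11, adjusted p = 0.0453), overlapping arrays and no call in 15 of the 18 alternative settings. Mki67, the proliferation marker, did not pass (0.11, SE 0.19), with treated array 3 at 5.69 and the other treated arrays at 4.86 and 4.55. Ccnd1 (cyclin D1) did not pass with the probeset used (−0.35, SE 0.12, adjusted p = 0.117). Its other probesets gave −0.52 and −0.44 and passed in limma over all probesets (adjusted p = 0.0014 and 0.0069). The E2F site (TTTNNCGC) was in 8.28% of windows of genes that rose, 5.98% of those that fell and 6.39% of all. The windows of E2f8 and Rrm2 held no match and that of Cdc6 held 1. The Mcm6 window (chr1:128359706-128359955, minus strand) holds 3 matches on either strand, of which a pair overlap, at 110, 106 and 47 bases before the start.
Mcm6: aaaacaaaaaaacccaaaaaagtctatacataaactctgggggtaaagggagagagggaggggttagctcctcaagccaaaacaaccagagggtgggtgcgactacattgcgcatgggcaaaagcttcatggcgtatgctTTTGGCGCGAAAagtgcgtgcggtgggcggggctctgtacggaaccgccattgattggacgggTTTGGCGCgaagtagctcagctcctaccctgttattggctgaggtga

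Of the 44 lists, that of interferon response and antigen presentation genes held the most falls. Of 58 measured, 17 fell, 1 rose and 40 did not pass (29.3% lower, against 5.32% of all genes), with a median of −0.23 and 9 above 0. The median was −0.19, −0.28 and −0.30 within the numbers 1, 3 and 4, and 15 fell without the arrays numbered 1 and 8 without the replicate block. Irf9, the DNA-binding part of the factor that carries type I interferon signals, was at 6.79, 6.88, 6.71 and 7.24 untreated and at 5.99, 6.18 and 6.10 treated, a change of −0.80 (SE 0.11, adjusted p = 0.000649). Xaf1, a pro-apoptotic interferon-induced protein, changed by −1.20 (SE 0.18), with untreated array 4b above the other untreated arrays, and its other probeset gave −1.47. Rnf213, a large ubiquitin ligase with antimicrobial roles, was at 7.47 to 7.71 untreated and at 6.05, 6.58 and 6.62 treated, a change of −1.13 (SE 0.14), though another probeset gave −0.18. Gbp2, a guanylate-binding protein that attacks vacuoles of microbes, changed by −0.71 (SE 0.09, adjusted p = 0.000274) and its other probeset by −0.79.

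The interferon-stimulated response element (GAAANNGAAA) was in 3.44% of windows of genes that fell, 2.12% of those that rose and 2.61% of all. The windows of Xaf1 and Rnf213 held no match, while those of E2f8 and Tgfbi, which rose, did. The Gbp2 window (chr3:142620413-142620662, plus strand) is shown because it holds a match on the minus strand, 59 bases before the start. An AP-1 site lies at 102 and a TEAD site at 120 bases.
Gbp2: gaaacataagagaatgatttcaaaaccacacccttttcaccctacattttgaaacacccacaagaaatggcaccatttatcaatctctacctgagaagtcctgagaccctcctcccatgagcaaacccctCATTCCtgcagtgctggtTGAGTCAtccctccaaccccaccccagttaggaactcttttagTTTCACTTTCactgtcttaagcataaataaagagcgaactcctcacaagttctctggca

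Inflammatory genes were mixed, with 4 of 57 chemokines and mediators higher and 3 lower (12.3% called, against 9.83% of all genes). Ptgs2 (COX-2), the inducible prostaglandin synthase, was at 4.06, 4.65, 4.70 and 4.57 untreated and at 5.72, 6.74 and 6.21 treated, a rise of 1.77 (SE 0.22, adjusted p = 0.000295). Cxcl12, the chemokine by which marrow stroma retains blood stem cells, was at 6.15, 6.22, 6.24 and 6.77 untreated and at 4.95, 5.48 and 5.51 treated, a change of −0.9997 (SE 0.13, adjusted p = 0.00042), and its other probesets gave −0.88 and −0.48. Ackr3, a scavenging receptor of Cxcl12, rose by 1.22 (SE 0.16), and Tnfaip3 (A20), which restrains NF-κB, by 0.70 (SE 0.09), though another probeset of Tnfaip3 gave 0.07. Of 23 complement genes none rose and 2 fell (8.70% called, near the 9.83% of all genes), Masp1 of the lectin pathway (−0.50, SE 0.07) and C1qtnf1, a C1q relative (−0.39, SE 0.09), whose other probeset gave −0.12. Without the arrays numbered 1, and likewise without the replicate block, 1 complement gene fell.

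**Figure D3:**
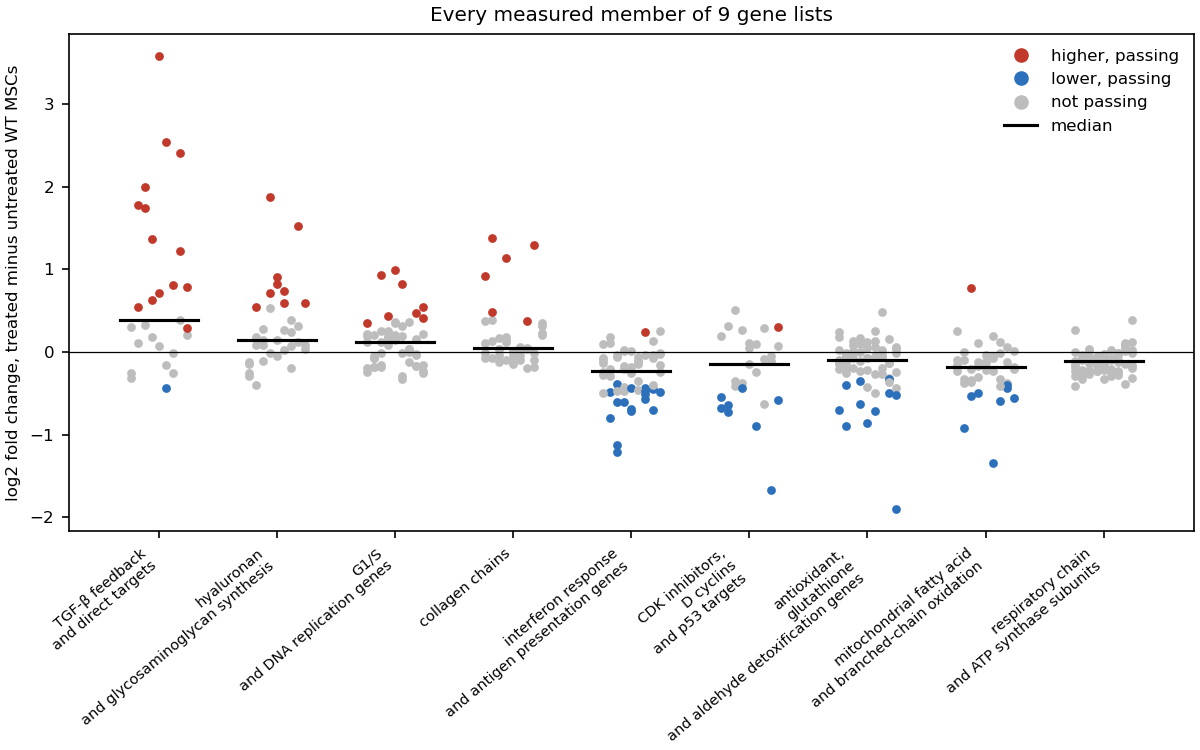
Log2 fold change (TGF-β-treated minus untreated WT MSCs, vertical axis) of every measured member of 9 gene lists (horizontal axis); red points passed as higher, blue as lower, grey did not pass, and black bars are medians over all members. The medians run from 0.39 for TGF-β feedback and target genes to −0.23 for interferon genes, and respiratory chain genes lie in a narrow band with a median of −0.11 and no member that passed.

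In metabolism, falls outnumbered rises among genes of mitochondrial oxidation and of detoxification. Of 44 oxidation genes 8 fell and 1 rose (18.2% lower, against 5.32% of all genes, median −0.19). Without the arrays numbered 1 or without the replicate block 6 fell. Acadm, the medium-chain acyl-CoA dehydrogenase, was at 7.55, 8.18, 8.07 and 8.20 untreated and at 6.05, 7.09 and 6.74 treated, a change of −1.35 (SE 0.16, adjusted p = 0.000275). Acaa2, the last enzyme of the β-oxidation cycle, changed by −0.93 (SE 0.11), and Cpt1a, which admits fatty acids to mitochondria, by −0.59 (SE 0.10). Bcat1, the cytosolic transaminase of branched-chain amino acids, was the member that rose (0.78, SE 0.11). The 70 measured subunits of the respiratory chain and ATP synthase had no member past the threshold in either direction, with a median of −0.11 and 13 above 0, and neither did the 64 ribosomal proteins (median −0.07).

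Of 65 antioxidant, glutathione and aldehyde genes 11 fell and none rose (16.9% lower, against 5.32% of all genes, median −0.10). However, 5 fell without the arrays numbered 1 and 2 without the replicate block. Besides Aldh3a1, they included Gstt3 and Gstm7, glutathione transferases (−0.90, SE 0.11, and −0.71, SE 0.17), and Aox1, an aldehyde oxidase, which was at 4.39 to 5.34 untreated and at 3.62, 4.10 and 4.11 treated (−0.85, SE 0.16, adjusted p = 0.0047). Another probeset of Gstm7 gave −0.0045. Of 41 lysosome and autophagy genes 6 fell and none rose (14.6% lower). Among the falls were Sgsh, which degrades heparan sulfate (−0.76, SE 0.08), and Gabarapl1, of the autophagosome (−0.64, SE 0.08).

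Glucose genes moved in both directions, 7 of 45 higher and 5 lower (15.6% and 11.1%, against 4.51% and 5.32% of all genes). Pfkfb3, which makes the activator of phosphofructokinase, was at 5.66, 5.40, 5.34 and 5.09 untreated and at 6.93, 6.81 and 6.99 treated, a rise of 1.51 (SE 0.11, adjusted p = 6.28e-06). Hk2 (hexokinase 2) rose by 1.06 (SE 0.11), and the glucose transporter gene Slc2a1 (GLUT1), named after its value was seen, by 0.67 (SE 0.10). The falls were those of Txnip, described above, and of Pdk2, which switches off pyruvate dehydrogenase (−0.98, SE 0.10), among others. In lipid synthesis 3 of 33 genes rose and 1 fell (9.09% higher and 3.03% lower). Acsl4, which activates arachidonate, rose by 1.54 (SE 0.34), with untreated array 1 far below the rest at 5.12. The droplet coat protein Plin3 changed by −1.06 (SE 0.11). Of 26 sterol genes 1 rose and 2 fell (11.5% called, near the 9.83% of all genes). Of 54 unfolded protein and secretory genes 4 rose and none fell (7.41% called, below the 9.83% of all genes). They included Creb3l2, a membrane-bound factor that raises secretory capacity (0.98, SE 0.08), and Xbp1, of the unfolded protein response (0.74, SE 0.12). Of 47 amino acid genes 1 rose and 5 fell (2.13% higher and 10.6% lower), including Ddit3 (CHOP) and Trib3, which respond to amino acid stress (both −0.65, SE 0.15 and 0.12).

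Clock genes were split, with 3 of 19 higher and 3 lower (15.8% each, against 4.51% and 5.32% of all genes). Cry1, a repressor of the clock, was at 4.68, 4.94, 5.04 and 5.07 untreated and at 5.56, 6.13 and 5.73 treated, a rise of 0.89 (SE 0.14, adjusted p = 0.0016), and Arntl (BMAL1), the activator it represses, rose by 0.71 (SE 0.19, adjusted p = 0.0381) with overlapping arrays. Per3, a period gene, changed by −0.71 (SE 0.12). Samples were taken at 1 time after treatment, so these values hold no phase. The Per3 window held no E-box, the site of clock activators. The Cry1 window (chr10:85185055-85185304, minus strand) holds an E-box 60 bases before the start and a FOXO site at 95 bases.
Cry1: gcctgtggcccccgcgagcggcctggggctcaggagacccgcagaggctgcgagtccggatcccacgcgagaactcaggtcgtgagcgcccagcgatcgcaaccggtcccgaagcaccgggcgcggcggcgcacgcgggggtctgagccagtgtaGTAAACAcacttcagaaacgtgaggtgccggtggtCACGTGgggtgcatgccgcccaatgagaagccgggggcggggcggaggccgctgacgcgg

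Some genes of the lineages that MSCs can enter changed. Of 28 osteoblast and chondrocyte genes 9 rose and 2 fell (39.3% called, against 9.83% of all genes). It was 8 and 1 without the arrays numbered 1, and 5 and 1 without the replicate block. Sox6, a chondrocyte factor, was at 4.12 to 4.36 untreated and at 4.88, 5.51 and 5.12 treated, a rise of 0.95 (SE 0.16, adjusted p = 0.003). Other probesets of Sox6 gave 0.25 and 0.49. Ank, a pyrophosphate exporter that limits mineral, rose by 0.96 (SE 0.10), and Tnfrsf11b (osteoprotegerin), the decoy receptor that restrains osteoclasts, by 0.76 (SE 0.18), whereas Bglap (osteocalcin), made by mature osteoblasts, changed by −0.73 (SE 0.14). Of 14 adipocyte genes none rose and 2 fell (14.3% called). The falls were in Zfp467, a zinc finger cofactor of adipogenesis (−0.87, SE 0.11), and Klf15, an adipogenic factor (−0.67, SE 0.13). Pparg, the master regulator of adipocytes, did not pass (−0.34, SE 0.14, adjusted p = 0.159). Among 21 MSC markers 3 rose and 3 fell (28.6% called). Anpep (CD13) was at 1.13 (SE 0.16), Cd44, the hyaluronan receptor, at 0.71 (SE 0.09), and S100a4 (FSP1), a fibroblast marker, at −0.77 (SE 0.16).

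Markers of other cell types gave 3 calls among 70 measured. The endothelial, leukocyte and epithelial lists had 5.56%, 7.69% and 8.33% called, below the 9.83% of all genes. Of 18 endothelial markers Erg, a transcription factor of endothelial cells, rose by 0.73 (SE 0.10) from a mean of 3.71, though its other probeset gave 0.19, of 13 leukocyte markers Fcer1g rose by 0.31 (SE 0.08), and of 12 epithelial markers Krt19 changed by −0.65 (SE 0.15). None of the 14 muscle or 13 neural markers passed. The median level of the endothelial list was 3.70 in untreated and 3.70 in treated arrays, and that of the leukocyte list 3.63 and 3.61.

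**Figure D4:**
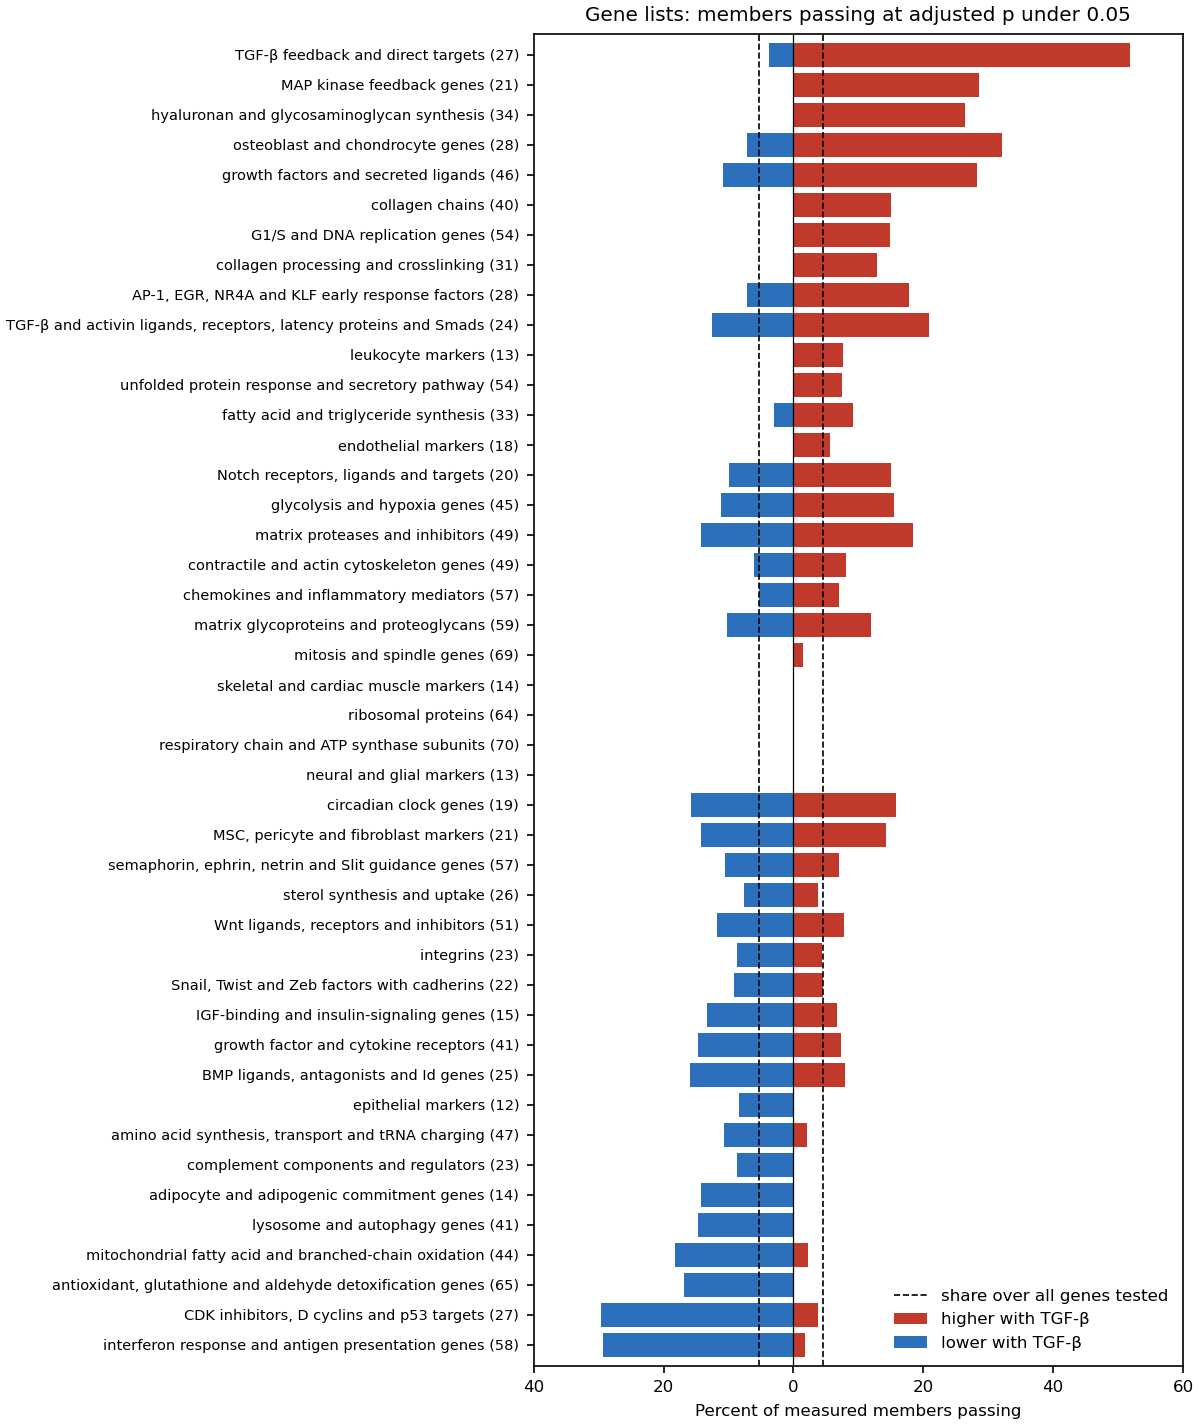
Share of measured members (horizontal axis, percent; number measured in brackets) that passed as higher (red, to the right) or lower (blue, to the left) with TGF-β in WT MSCs, for 44 gene lists; dashed lines mark the shares over all genes tested, 4.51% higher and 5.32% lower. The TGF-β feedback list is at the top with 51.9% higher, and the interferon list and the list of CDK inhibitors are at the bottom with 29.3% and 29.6% lower.

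The response of p38α∆ MSCs in the same fit had 581 genes higher and 842 lower of the 17097 tested. It was measured on 3 treated arrays, numbered 1, 2 and 4, and 2 untreated ones, numbered 1 and 3. Number 1 alone held both, so treatment and array number cannot be fully told apart in that response or in its comparison with WT MSCs. Of the 771 genes that rose in WT MSCs, 441 also rose in p38α∆ MSCs (57.2% of the WT genes and 75.9% of the p38α∆ genes), and of the 910 that fell, 528 also fell (58.0% and 62.7%). A single gene that rose in WT MSCs was lower in p38α∆ MSCs. Of the 1681 genes called in WT MSCs, 1645 had the same sign in p38α∆ MSCs. The share with the same sign over all genes tested is not given here, so that count has no background to be read against. The test of the difference between the responses passed for 0 genes in limma, with a lowest adjusted p of 0.218. An unadjusted p under 0.05 was found for 919 of the 17097 genes tested, near the share expected at that threshold if no gene differed. The responses can therefore be set side by side but not called different gene by gene. Among the named genes with larger changes in p38α∆ MSCs were Hbegf (3.51 against 2.50), Maff (1.78 against 0.80), Jun (1.69 against 0.78) and Txnip (−2.47 against −1.56). Their unadjusted p of the difference in limma was 0.000502, 1.28e-05, 0.000136 and 0.000686. Other named genes had smaller changes there, among them Adam12 (2.11 against 3.10, unadjusted p = 0.0162) and Col8a2 (0.51 against 0.92, unadjusted p = 0.0200). None of these differences passed after adjustment. For Skil the responses were 2.55 and 2.54, and for Id3 −1.33 and −1.31. The G1/S list had a median of 0.12 in WT and −0.26 in p38α∆ MSCs.

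**Figure D5:**
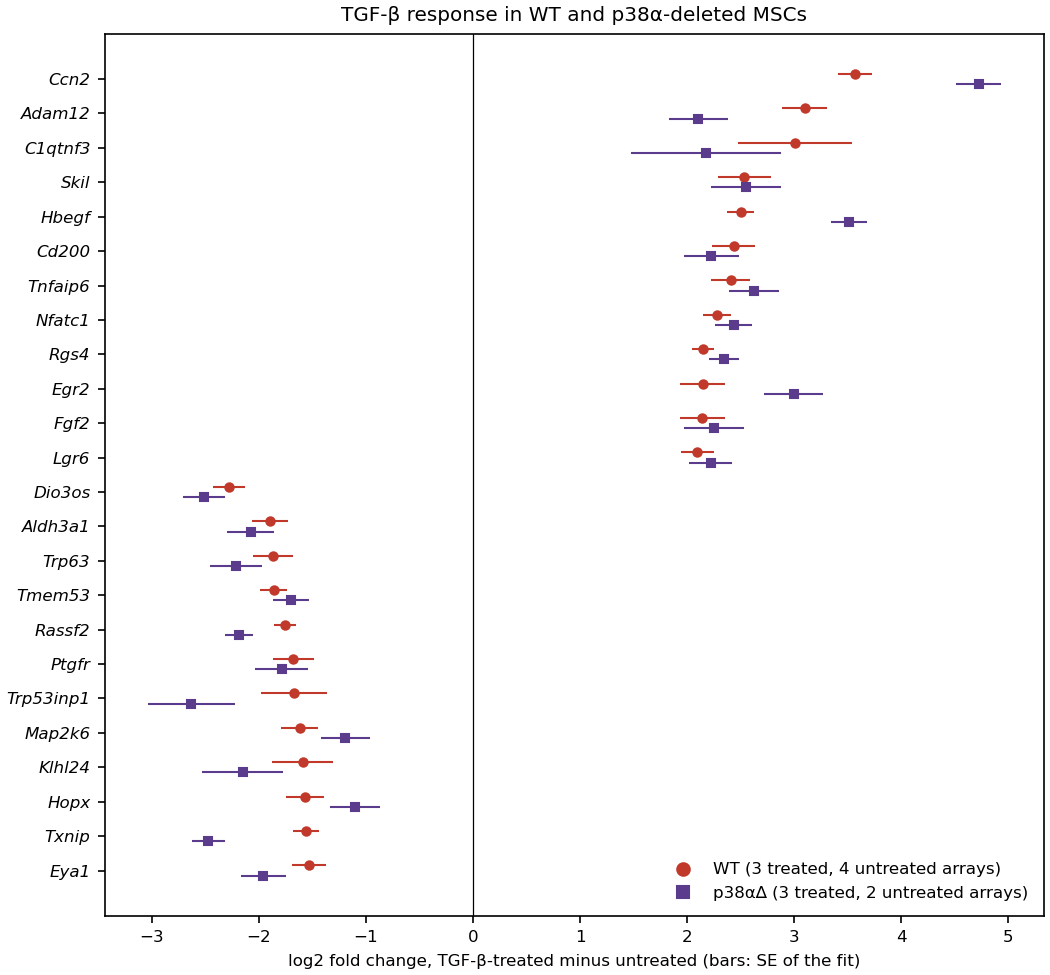
Log2 fold change with TGF-β (horizontal axis, bars are the SE of the fit) of the 24 genes with the largest changes in WT MSCs, in WT (red circles, 3 treated and 4 untreated arrays) and p38α∆ MSCs (purple squares, 3 treated and 2 untreated arrays). The 24 genes were chosen on the WT values, each has the same direction in p38α∆ MSCs, and none passed the test of the difference.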

How the data were processed

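RNA of 12 samples of immortalized mouse MSCs was amplified, labelled and hybridized to Affymetrix MG-430 PM arrays. The authors normalized the arrays with RMA (background correction and summarization) and deposited log2 values, 1 per probeset, which were used without further scaling. No measure of signal over background comes with these values, and the number of arrays (3 treated, 4 untreated) limits the precision of each one. RMA pulls arrays onto 1 distribution, so a shift shared by most genes would not show.

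Of 45101 probesets 64 controls were left out. Platform annotation named 1 gene for 28898, several for 551 and none for 15588, and probesets without a single name were not used. Where a gene had several probesets (7180 genes), the one of largest median absolute deviation across all 12 arrays stood for it, and 17097 genes were tested.

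Groups came from the titles. The methods adjust for scanning batch, which is not given in the sources used here, so the title number (4b counted as 4) served as a random block in limma 3.58.1 (R 4.3.3), in 1 fit of all 12 arrays with 4 group means. The estimated correlation was 0.522, and 0.112 without the 4 arrays numbered 1. Same-numbered treated and untreated WT arrays deviated together from their group means for the numbers 1 and 3 (correlation 0.745 and 0.793). For number 4 the correlation was 0.184, while untreated 4 against treated 3 gave 0.537. Deviations within a group cancel out and the arrays numbered 1 stood apart, so the value for number 3 partly reflects those arrays. The numbers were taken to pair the samples, though these values do not show a pairing for number 4 and cannot by themselves show one for number 3. P-values are two-sided and adjusted by the Benjamini-Hochberg method over all genes. The difference of the WT and p38α∆ responses was the interaction contrast of the same fit. No test compared values of different genes.

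The 44 gene lists were written from general knowledge, and they, the comparison and the rule for named genes were chosen with earlier results of these data known. Lists are described by counts and medians, without a test. Named were the 12 genes with the largest rises and the 12 with the largest falls that kept their sign in all 3 numbers (clone identifiers left out), up to 4 members that passed per list, a set of TGF-β, matrix and cycle genes, and the first 3 markers of each cell type; other names are said to be chosen after their values were seen. Promoter windows are from RefSeq (GRCm38.p6). The fit was tested on simulated data. Alternatives left out the block or single arrays, averaged 4 and 4b, or changed the probeset, scaling or filter. Python 3 with pandas and matplotlib drew the figures.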

Additional observations from a re-analysis of the deposited data

Results flagged for a closer look

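In the 4 untreated WT arrays, 22 of the 184 named genes had 1 array far from the other 3, by a gap above Dixon's critical value for 4 values. Chance alone gives such a gap in about 1 group in 20. The array was number 1 in 14 of them: Skil (4.58), Eya1 (6.30), Ccn4 (6.28), Sec23a (7.66), Lox (9.70), Ugdh (8.43), Dusp6 (4.94), Ghr (7.81), Acsl4 (5.12) and Tnfrsf11b (2.38), Tgfbr1 (4.39), which were low there, and Plin3 (8.04), Col1a1 (12.48) and Pdgfrb (9.63), which were high there. Array 4b stood apart for Ccn5 (7.21), Xbp1 (6.54), Gpt2 (6.65), an alanine transaminase, and Fn1 (11.93), which were low, and for Fgfr2 (9.94) and Cxcl12 (6.77), which were high. Array 3 was high for Fgf2 (5.68), and array 4 low for Rbfox3 (5.11), a neuronal marker. What set these arrays apart was not tested.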

How the results depend on the processing

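The counts of 771 genes higher and 910 lower depend on the pairing of arrays. Without the replicate block 295 were higher and 298 lower, all of them among the genes called with it. With every probeset tested in place of 1 per gene, 1326 probesets were higher and 1378 lower, and the difference of the genotypes' responses passed for 3 probesets against 0 genes in each other setting that gave this test. Asking for a change of at least 1 on the log2 scale left 118 higher and 60 lower.

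Leaving out 1 WT array at a time gave 498 to 702 higher and 516 to 799 lower. The arrays whose loss moved a count by over 1.5 times were treated array 1 (514 higher, 516 lower), untreated array 3 (567 lower), treated array 3 (498 higher, 571 lower) and treated array 4 (513 higher, 577 lower). The cause was not tested.

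Of the 157 named genes that passed, 102 passed in each of the 18 other settings with 1 probeset per gene that tested them (135 of the 157 were tested where a mean of at least 5 was asked), and none changed direction in any of them. The most calls were lost without the replicate block (49), without treated array 1 (28) and without treated array 4 (26).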
